A study of Mus musculus with 35 samples.

Results

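The clustered histone genes, named Hist1h to Hist4h in the mouse, were followed through late spermatogenesis in control testes and in testes with a germ cell deletion in Smg6. Each gene count table held 24411 gene rows, and 68 of these carried such a name. The members described here are the 30 rows with at least 10 counts in at least 3 libraries of 1 of the 3 tables. Of these, 22 passed in pachytene spermatocytes (Spc), 25 in round spermatids (RS) and 24 in isolated chromatoid bodies (CB), with 18 passing in all 3. By class, 4 of 6 H1 rows, 7 of 18 H2A rows, 8 of 19 H2B rows, 4 of 12 H3 rows and 7 of 13 H4 rows passed. The 38 rows that did not pass never exceeded 21 counts in a library and held 0.695% of all clustered histone counts in Spc, 0.61% in RS and 3.67% in CB.

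Histones H2A, H2B, H3 and H4 build the protein core of the nucleosome, and H1 binds the DNA between nucleosomes. Most clustered genes have no intron and are transcribed during S phase, and their mRNAs end in a conserved stem-loop, bound by SLBP, in place of a poly(A) tail. In the male germ line, testis forms join or replace the somatic ones during meiosis, among them H1t (Hist1h1t), TH2B (Hist1h2ba) and TH2A (Hist1h2aa), before transition proteins and protamines take over the chromatin of elongating spermatids.

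SMG6 is the endonuclease of nonsense-mediated decay (NMD), an mRNA surveillance pathway, and the comparisons ask how its loss alters the RNA of meiotic and haploid germ cells. Smg6-cKO mice (cKO) were Smg6 fx/fx;Ngn3Cre+, so that Cre driven by the Ngn3 promoter in spermatogonia removed a floxed exon, and the line came from 2 targeted embryonic stem cell clones. Controls (CTRL) were wild type-like littermates without Cre that carried the floxed allele in 1 or 2 copies, and all mice were adults of mixed C57Bl/6J and SV129 background. Spc and RS were enriched by sedimentation through a BSA gradient, with 3 libraries of polyadenylated RNA in each of CTRL Spc, cKO Spc, CTRL RS and cKO RS, and the sources differ on whether a library came from 1 mouse or from pooled testes. CB, the RNA- and DDX4-rich granule of round spermatids, were isolated with an antibody to DDX4 after fixation, each library from several mice, and their total RNA was sequenced in 4 CTRL and 3 cKO libraries, here lettered in no order. The cell libraries are described as biological replicates, and p-values measure only the spread between these libraries.

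Libraries held 38129415 to 49940226 counts in Spc and RS and 3965541 to 16699210 in CB. Counts over the whole Smg6 gene, which do not test the loss of 1 exon, were 104 to 163 CPM (counts scaled to the normalised total of the library) in CTRL Spc and 173 to 180 in cKO Spc, 133 to 217 in CTRL RS and 182 to 195 in cKO RS, and 174 to 197 in CTRL CB and 155 to 194 in cKO CB. All 10 round spermatid markers and all 10 late spermatid markers had counts in every group, and both lists were higher in CTRL RS than in CTRL Spc (10 of 10 genes each). In cKO RS all 10 late spermatid markers fell, with a summed level of 1963 to 2035 CPM against 28629 to 37718 in CTRL RS, and all 10 round spermatid markers fell, with 1641 to 1916 CPM against 5130 to 5374. Markers of other cells moved the opposite way in RS: 6 of 9 spermatocyte, 5 of 8 spermatogonial, 10 of 10 Sertoli, 10 of 10 macrophage and 7 of 7 Leydig cell genes tested rose in cKO RS. In bulk RNA, fewer cells of a type and less RNA per cell cannot be told apart, and the part of cell make-up in the histone results below was not tested. The lowest Leydig sum in cKO RS was 31.2 CPM and the highest 316, against 9.59 to 9.89 in CTRL RS.

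To show what defines these mRNAs, the stem-loop was read from the mouse genome (RefSeq, GRCm38) in the 200 bases that follow each stop codon, on the coding strand. The motif was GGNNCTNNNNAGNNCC with its first NN pairing with its last NN. It was found for 64 of the 67 histone rows matched to RefSeq and for 77 of 21000 coding genes in all (0.367%). The forms of some members named below are given with 5 bases on either side, the 16 bases of the stem-loop in capitals.
Hist2h2aa1, chr3:96246032-96246047, plus strand: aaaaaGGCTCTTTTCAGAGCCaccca
Hist1h1t, chr13:23696525-23696540, plus strand: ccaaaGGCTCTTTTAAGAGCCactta
Hist1h2ba, chr13:23933730-23933745, minus strand: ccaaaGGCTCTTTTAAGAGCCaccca
Hist1h4c, chr13:23698089-23698104, minus strand: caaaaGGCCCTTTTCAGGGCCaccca
Hist1h4a, chr13:23760800-23760815, minus strand: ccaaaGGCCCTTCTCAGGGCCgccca

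The stem-loop of Hist2h2aa1 was the most frequent form, shared by 40 rows, and 16 of these are members. The testis genes Hist1h1t and Hist1h2ba carried a form found in 9 rows, the testis gene Hist1h2aa carried that of Hist2h2aa1, and the form of Hist1h4c was found in 8 rows. The stem-loop of Hist1h4a, an H4 gene, was found in no other histone row, and the same held for those of Hist1h3g and Hist2h2ac. Of these, Hist2h2ac is a member that was not called by gene counts in any comparison. No stem-loop was found in the window of Hist2h2be, of the pseudogene Hist3h2bb-ps or of Hist1h2an, which did not pass. The hexamer AATAAA, the usual poly(A) signal, lay within the last 40 bases of a RefSeq transcript of 3 members only, Hist2h2be, Hist1h2bc and Hist1h2bp, against 61.3% of all coding transcripts. Hist1h2bp has a 1-exon transcript of 456 bases that ends 5 bases past its stem-loop and a 2-exon transcript of 594 bases without one, and the Hist2h2be mRNA is 2667 bases long. A match or its absence describes these letters only.

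Of the members, 20 lie on chromosome 13, 7 on chromosome 3, 2 on chromosome 11 and 1 on chromosome 6. Several share sequence with a neighbour. Of all 75-base words in its exons, Hist2h2aa1 shared 95.9% with Hist2h2aa2 and Hist2h3c1 shared 97.5% with Hist2h3c2, and the 2 rows of each pair held nearly the same counts, except that Hist2h3c1 held 22 and Hist2h3c2 held 0 in 1 CTRL CB library, so that each pair is described as 1 signal whose genes cannot be told apart. Counts of members below are counts of rows, in which both rows of a pair are counted. Hist1h4a shared 42.5% of its words with Hist1h4k, and 56.7% were its own. How shared reads were divided is not given in the sources used here.

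In CTRL Spc, H2A genes gave 42.8% to 49.1% of the polyadenylated histone counts and H2B genes 42% to 48.1%. Per kilobase of RefSeq exon, Hist2h2aa1 stood highest with 41.1 to 54.0 CPM, followed by Hist1h2bp with 18.97 to 33.1, Hist2h2be with 11.8 to 15.2, Hist3h2a with 9.60 to 16.04 and Hist1h4a with 7.78 to 10.8. The ranges of Hist2h2be and Hist3h2a overlapped, as did those of Hist3h2a and Hist1h4a. In CTRL RS the order per kilobase was Hist2h2aa1 with 87.1 to 96.9 CPM, Hist1h2bp with 79.2 to 82.8 and Hist1h4a with 34.6 to 45.3, and the range of Hist2h2aa2, 81.3 to 90.4, overlapped those of the first and the second. Every other member had a mean of at most 4.51 CPM per kilobase.

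The summed level of all 68 rows was 121 to 140.6 CPM in CTRL Spc, 141.4 to 145.9 in cKO Spc, 195.9 to 215.2 in CTRL RS and 94.71 to 103.9 in cKO RS. Control round spermatids were thus the highest and cKO round spermatids the lowest of the 4 groups, with no overlap between any of them. Scaled to library size alone, the sums were 135.6 to 150.9, 146.4 to 159, 148.3 to 169.5 and 109.5 to 116.5 CPM, and only the cKO RS libraries stayed apart from the rest. The make-up also differed. Hist2h2aa1 and Hist2h2aa2 together held 35.5% to 42.7% of the sum in CTRL Spc and 49.4% to 50.5% in CTRL RS, but 22% to 27.6% in cKO Spc and 34.5% to 37.7% in cKO RS. Hist2h2be, whose long mRNA carries the AATAAA end, held 22.6% to 31.3% in CTRL Spc, 38.6% to 46.6% in cKO Spc, 4.02% to 5.6% in CTRL RS and 10.5% to 17.4% in cKO RS. These sums are given without a test.

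**Figure D1:**
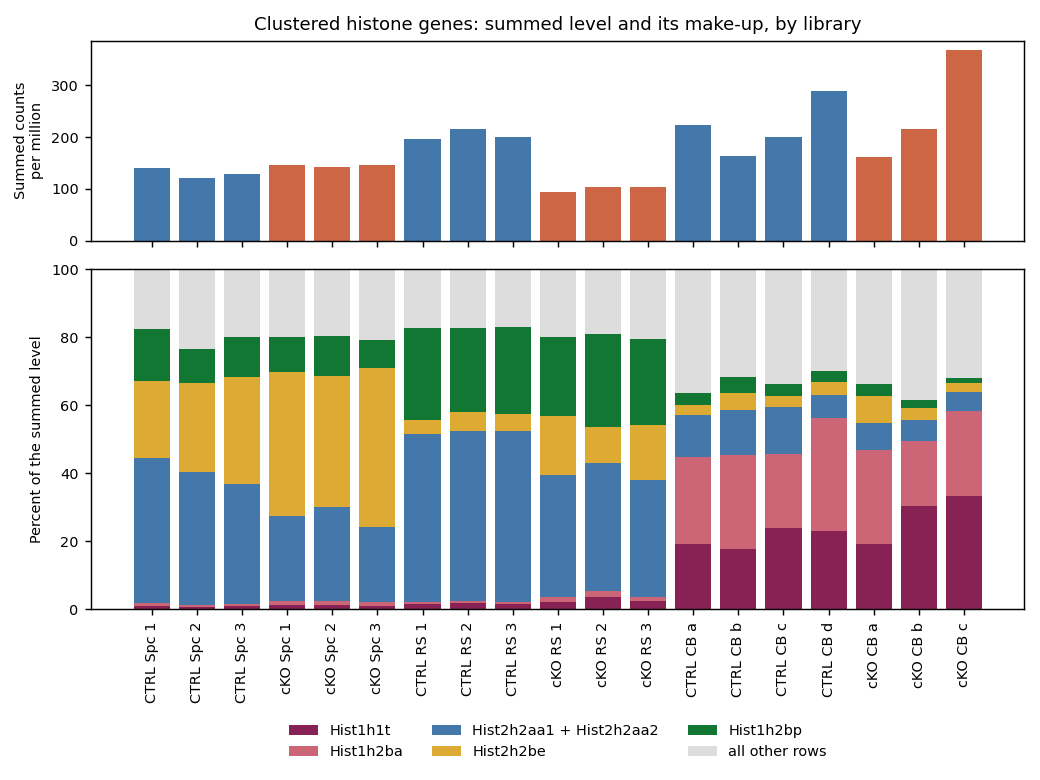
Summed level of the 68 clustered histone rows in CPM (upper bars, blue CTRL, orange cKO) and the percent of that sum held by 6 rows and by all others (lower stacked bars), for each of 19 libraries; Spc and RS are polyadenylated RNA and CB is total RNA. The sum is highest in CTRL RS among polyadenylated libraries, and Hist1h1t with Hist1h2ba make up 44.9% to 58.2% of it in CB libraries.

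In polyadenylated RNA of control round spermatids, Hist2h2aa1 with Hist2h2aa2, Hist1h2bp and Hist1h4a had the highest levels of the clustered histone genes. These were lower in the cKO, while a smaller set that includes Hist3h2bb-ps and Hist3h2a was higher. RNA without a poly(A) tail was selected against in these libraries, so these levels are not those of all histone RNA. Of the 25 members tested in RS, 10 fell and 5 rose, at an adjusted p of 0.05 or less in the quasi-likelihood test of edgeR, with Benjamini-Hochberg correction over 18504 features (genes and transposable elements). Of all these features, 33.3% fell, 38.0% rose and 71.4% did either. The groups of 17 of the 25 members (68%) did not overlap, near the 76% of all features, and 14 of these 17 were called. Of the called members, Hist1h1c and Hist1h2ag reached the minimum of 10 counts only in the group where they were higher, so that they could pass into the test only by differing, and without them 9 fell and 4 rose. In a fit over transcripts, on uniquely mapped pairs, 7 of 23 member transcripts (of 21 genes) rose and 7 fell. Of all transcripts in that fit 38.9% rose and 36.0% fell. The median log2 fold change of the members by gene counts was -0.21 against 0.10 over all features. With library size scaling alone, which moves the median of all features in RS to 0.65, 6 members fell and 9 rose and the members' median was 0.34, still under that of all features. The rows that fell included all 3 H3 rows tested, 2 of them the Hist2h3c pair, and 4 of 7 H2A rows, 2 of them the Hist2h2aa pair. With each of these pairs, and Hist1h2bm with Hist1h2bn, counted once, 8 of 22 signals fell and 5 rose. Of the 15 members tested in RS that carry the stem-loop of Hist2h2aa1, 2 rose and 9 fell.

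Among H1 genes, Hist1h1a (H1.1) measured 0.857, 1.71 and 1.10 CPM in the CTRL RS libraries and 0.548, 0.652 and 0.516 in cKO RS, a log2 fold change of -1.08 with an SE of 0.34, given below after ± (adjusted p = 0.0205). All cKO libraries lay under all controls, although the call was lost without CTRL RS 2 (adjusted p = 0.0851), cKO RS 1 (0.0693) or cKO RS 3 (0.0554) and with library size scaling alone (-0.53, 0.203). Hist1h1c (H1.2), a somatic linker histone, went the other way, from 0.111, 0.150 and 0.213 CPM, or 4, 5 and 7 counts, to 1.14, 0.463 and 1.49 CPM, a rise of 2.71 ± 0.54 (adjusted p = 0.00227). Of the members that rose in RS it had the largest change and the fewest control counts. No control library reached 10 counts, so that it passed into the test through cKO RS alone.

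The H2A pair carried the largest amount of signal. Hist2h2aa1 measured 48.4, 53.9 and 50.6 CPM in CTRL RS and 17.0, 19.6 and 17.8 in cKO RS, and Hist2h2aa2 read almost the same, each with a log2 fold change of -1.48 ± 0.10 (adjusted p = 4.87e-06). The groups were far apart and the call held without any 1 library. Hist2h2aa1 and Hist2h2aa2 had few uniquely mapped reads, since the transcript tables, which kept those alone, held a mean of 25 and 140 counts in CTRL RS. There, in a fit over transcripts of which 38.9% rose and 36.0% fell, Hist2h2aa2-201 fell by 1.44 on the log2 scale (adjusted p = 0.00787) and Hist2h2aa1-201 measured -0.85 (adjusted p = 0.399). Hist1h2ag fell as well, by 1.36 ± 0.36 from 13, 17 and 13 counts to 7, 8 and 9 (adjusted p = 0.00965, but 0.0575 by DESeq2 and 0.078 with library size scaling alone). Its cKO counts were all under the minimum of 10, so that it passed into the test through CTRL RS alone.

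Not every H2A gene followed. Hist3h2a, the H2A gene of the small chromosome 11 cluster, measured 2.93, 2.28 and 1.49 CPM in CTRL RS and 4.39, 3.60 and 4.44 in cKO RS, a rise of 0.90 ± 0.27 (adjusted p = 0.0167, but 0.0516 without CTRL RS 3). The Hist3h2a value was 0.34 (adjusted p = 0.121) when transcript counts were summed per gene. In the transcript fit Hist3h2a-201 was called higher, at 0.35 ± 0.13 (adjusted p = 0.0415). Hist3h2bb-ps, an H2B pseudogene that lies beside it on the opposite strand, rose by 1.18 ± 0.32 (adjusted p = 0.00985) from 0.470, 0.779 and 0.426 CPM to 1.30, 1.22 and 1.26. Both groups of Hist3h2bb-ps stood clear of each other in all libraries.

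In polyadenylated RNA of control round spermatids, Hist1h2bp had the highest level of the H2B genes. It measured 53.5, 53.1 and 51.1 CPM in CTRL RS and 21.9, 28.3 and 26.2 in cKO RS, a log2 fold change of -1.03 ± 0.11 (adjusted p = 7.36e-05). In the transcript tables its 1-exon and 2-exon forms, Hist1h2bp-201 and Hist1h2bp-202, fell by 0.99 ± 0.10 and 1.01 ± 0.11 on the log2 scale, but the 2 forms overlap and reads over both were divided in equal parts between them. Hist2h2be, by contrast, measured 7.88, 12.1 and 9.95 CPM in CTRL RS and 16.4, 10.95 and 16.7 in cKO RS, a rise of 0.57 ± 0.22 (adjusted p = 0.041). The groups overlapped, and the call was lost without CTRL RS 1 (0.137), CTRL RS 3 (0.0974), cKO RS 1 (0.105) or cKO RS 3 (0.0887). Hist3h2bb-ps was also higher, by 1.18 (adjusted p = 0.00985), and the other 5 of 8 H2B rows did not pass by gene counts. Of these, Hist1h2bj gave 0.17 (adjusted p = 0.645), while its transcript Hist1h2bj-201 was higher by 0.84 ± 0.27 (adjusted p = 0.0245) in the fit of uniquely mapped pairs. Hist1h2bc measured 9, 18 and 139 counts in CTRL RS, so that 1 control library set its mean. Its log2 fold change in RS was -0.05 (adjusted p = 0.966) and ran from -0.84 to 2.02 with 1 library left out, and without CTRL RS 3, which held the 139 counts, it passed at 2.02 (adjusted p = 0.0457). Without that library it was also called lower in CTRL RS than in CTRL Spc, at -2.85 (adjusted p = 0.0015), against -0.80 (adjusted p = 0.415) with all libraries, and in the cKO it went from -0.49 (adjusted p = 0.485) to -1.27 (adjusted p = 0.0471) without cKO RS 3.

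H3 and H4 genes held the steepest falls. Hist1h4a measured 16.5, 20.6 and 15.8 CPM in CTRL RS and 2.80, 3.93 and 2.51 in cKO RS, a log2 fold change of -2.50 ± 0.21 (adjusted p = 2.01e-05), which made it the most reduced member. Hist1h3a measured 1.85, 2.94 and 1.92 CPM and then 0.345, 0.631 and 0.497, a log2 fold change of -2.17 ± 0.34 (adjusted p = 0.000624). Neither gene's groups overlapped, and both calls held without any 1 library. Hist2h3c1 and Hist2h3c2 held the same counts here and fell by 1.08 ± 0.33 (adjusted p = 0.0184), a call that was lost without CTRL RS 1 (0.0581), CTRL RS 2 (0.0527) or cKO RS 2 (0.0524), with library size scaling alone (-0.52, 0.198) and with transcript counts summed per gene (-0.29 and -0.48). Hist1h4c, another H4 gene of the same chromosome 13 cluster, measured 0.691, 0.690 and 0.639 CPM in CTRL RS and 1.30, 1.22 and 0.994 in cKO RS, a rise of 0.81 ± 0.27 (adjusted p = 0.0257). Its groups stood apart, although 4 of the 6 fits with 1 library left out lost the call, with an adjusted p of up to 0.0793, and DESeq2 gave 0.0951. Hist1h4h and Hist1h4i gave 0.66 (adjusted p = 0.0926) and 0.68 (adjusted p = 0.198), and with library size scaling alone both passed, with 1.22 and 1.23. In the transcript fit Hist1h4h-201 was higher by 0.62 ± 0.21 (adjusted p = 0.0299), and Hist1h4i-201 was not tested.

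The testis forms did not move together in RS. Hist1h2aa (TH2A) measured 1.27, 1.02 and 1.07 CPM in CTRL RS and 0.508, 0.421 and 0.402 in cKO RS, a log2 fold change of -1.32 ± 0.29 (adjusted p = 0.00351) that held without any 1 library. Hist1h1t measured 3.04, 3.75 and 3.16 CPM against 2.07, 3.81 and 2.66, with overlapping groups and a log2 fold change of -0.21 ± 0.26 (adjusted p = 0.49). Hist1h2ba measured 1.13, 1.26 and 0.882 CPM against 1.30, 1.79 and 1.01, again overlapping, with 0.33 ± 0.31 (adjusted p = 0.357). With library size scaling alone, Hist1h1t turned to 0.34 (adjusted p = 0.275) and Hist1h2ba passed with 0.88 (adjusted p = 0.0326).

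**Figure D2:**
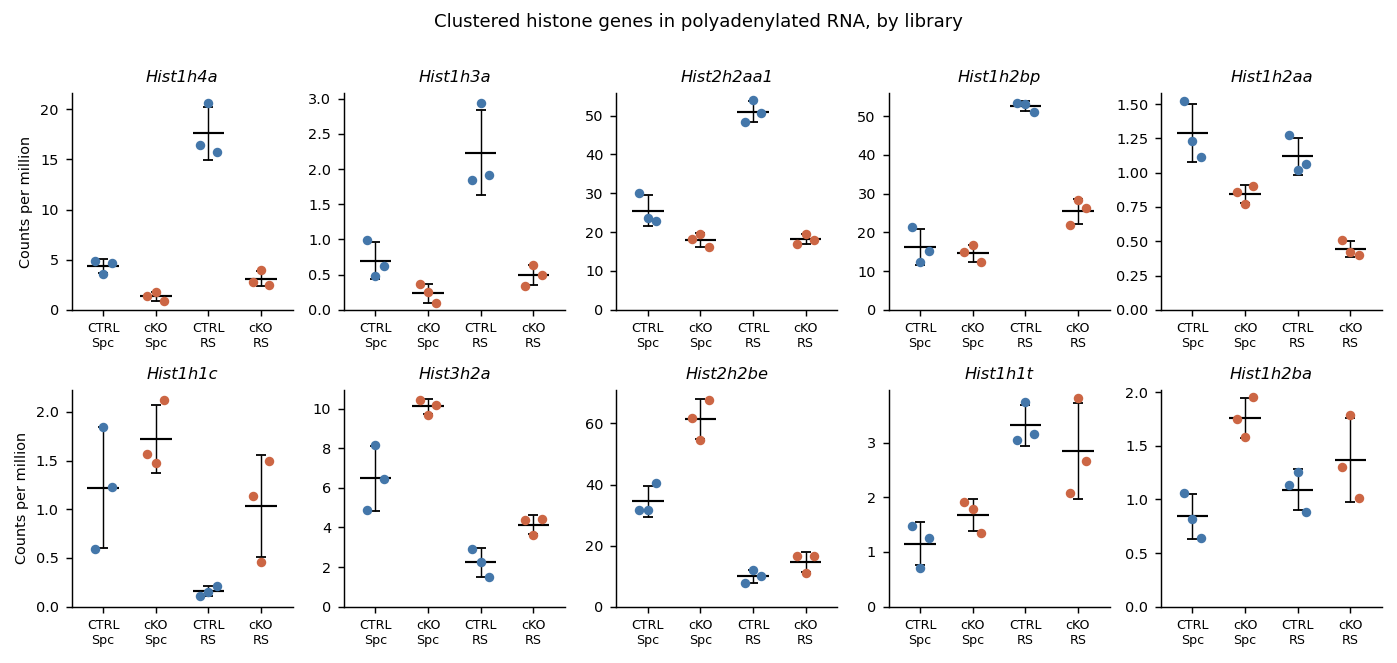
CPM (y axis, linear) of 10 members in each library of CTRL Spc, cKO Spc, CTRL RS and cKO RS (points; blue CTRL, orange cKO), with the mean (line) and SD (bars) of 3 libraries. Hist1h4a, Hist1h3a, Hist2h2aa1 and Hist1h2bp are highest in CTRL RS and far lower in cKO RS, while Hist2h2be and Hist3h2a are highest in cKO Spc.

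In spermatocytes Hist1h4a and Hist2h2aa1 with Hist2h2aa2 were lower in the cKO, and Hist2h2be and Hist2h2ab were higher. Of the 22 members tested in Spc, 5 rose and 4 fell (18323 features), where 13.3% of all features rose and 13% fell, or 26.2% in either direction. The groups of 13 of the 22 members did not overlap (59.1%, against 45.8% of all features), among them the 9 called, and of all features called in Spc 99.7% had such groups. In the transcript fit, 6 of 22 member transcripts rose and 1 fell, where 16.1% of all transcripts rose and 12.5% fell. The median log2 fold change of the members by gene counts was 0.21 against -0.01 over all features. Of the 9 called, 2 (Hist1h4a and Hist2h2be) passed in each of the 6 fits with 1 library left out, as did 33.3% of all features called in Spc. Those fits called from 1 to 3 members higher and from 1 to 3 lower. Markers of other cells moved in Spc too: 9 of 11 Sertoli genes and all 10 late spermatid genes fell, 9 of 10 macrophage genes and 3 of 8 Leydig genes rose, and their part in the histone values was not tested.

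Hist1h4a measured 4.90, 3.54 and 4.63 CPM in CTRL Spc and 1.36, 1.81 and 0.921 in cKO Spc, a log2 fold change of -1.77 ± 0.30 (adjusted p = 0.00832). Hist1h3a fell by 1.69 ± 0.52 (adjusted p = 0.0487), from 45, 27 and 32 counts to 14, 12 and 5, a call that each of the 6 fits without 1 library lost (adjusted p of up to 0.111). Hist2h2aa1 measured 30.0, 23.8 and 22.8 CPM and then 18.3, 19.5 and 16.1, a log2 fold change of -0.61 ± 0.16 (adjusted p = 0.0285), and Hist2h2aa2 matched it (0.028). None of the groups of these genes overlapped, but the Hist2h2aa1 and Hist2h2aa2 calls were lost without CTRL Spc 3, cKO Spc 1 or cKO Spc 3, with an adjusted p of up to 0.0884. Counts of uniquely mapped pairs, summed per gene, gave 0.36 for Hist2h2aa1 (adjusted p = 0.745) and -0.94 for Hist2h2aa2 (adjusted p = 0.168), so that the call was not made on uniquely mapped pairs.

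Among the genes that rose, Hist2h2be had the highest level. It measured 31.8, 31.5 and 40.4 CPM in CTRL Spc and 61.7, 54.6 and 67.8 in cKO Spc, a log2 fold change of 0.73 ± 0.14 (adjusted p = 0.0109). Hist2h2ab, its neighbour on chromosome 3, measured 0.927, 0.840 and 1.27 CPM and then 2.299, 2.27 and 2.48, a rise of 1.11 ± 0.25 (adjusted p = 0.0188). The libraries did not overlap for either gene, and the Hist2h2ab call was lost without CTRL Spc 2, cKO Spc 1 or cKO Spc 3, at an adjusted p of up to 0.0561. Hist1h2bj and Hist1h4i also rose, by 0.99 (adjusted p = 0.0473) and 1.08 (adjusted p = 0.0383), both from 9 to 13 counts per control library and both lost in all 6 fits without 1 library (adjusted p of up to 0.143 and 0.129) and by DESeq2 (0.135 and 0.0911).

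Of the testis forms, Hist1h2ba measured 1.06, 0.822 and 0.645 CPM in CTRL Spc and 1.75, 1.58 and 1.95 in cKO Spc, a rise of 0.96 ± 0.28 (adjusted p = 0.04). Its groups did not overlap, yet it kept the call only without CTRL Spc 1, with an adjusted p of up to 0.134 in the other 5 fits. Hist1h1t gave 0.45 ± 0.33 (adjusted p = 0.344), and Hist1h2aa gave -0.71 ± 0.25 (adjusted p = 0.0769) with all cKO libraries under all controls.

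**Figure D3:**
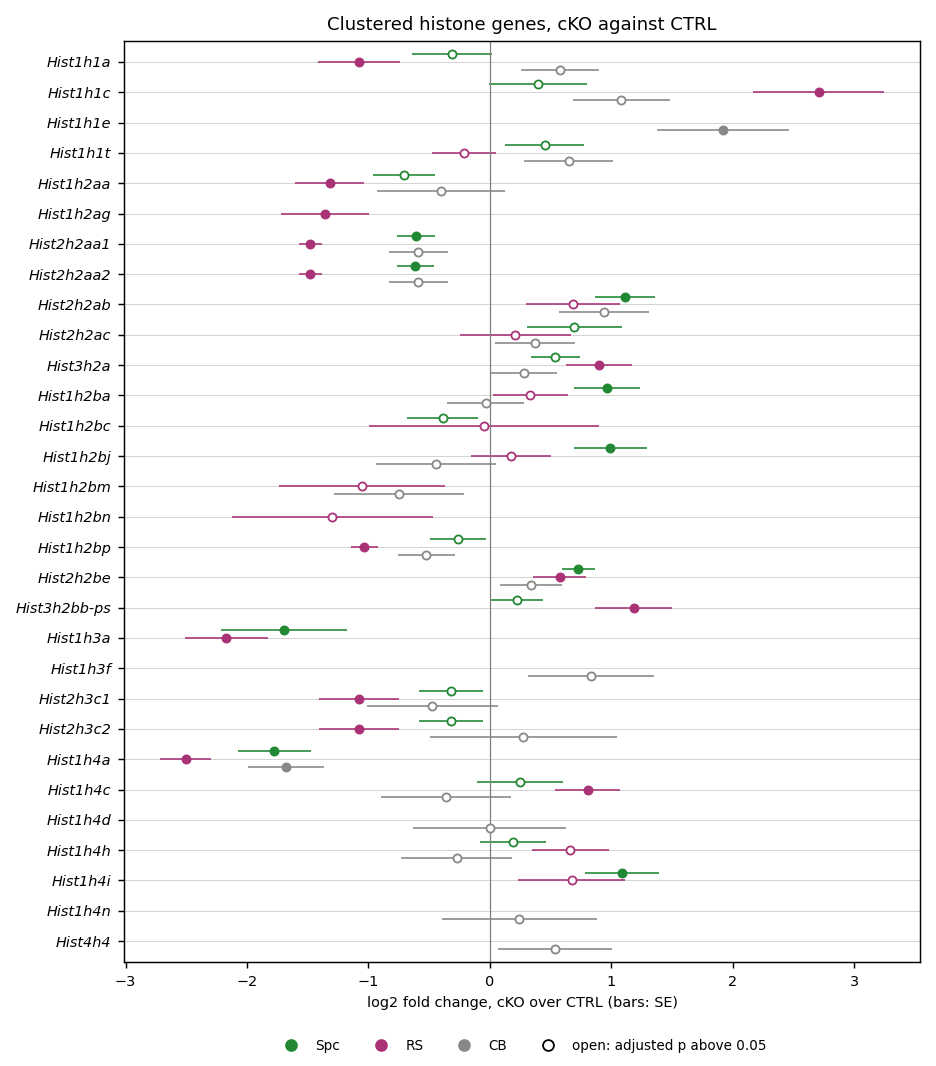
Log2 fold change of cKO over CTRL (x axis, bars SE) for each member tested in Spc (green), RS (magenta) and CB (grey), ordered by histone class, with open points where the adjusted p is above 0.05. Hist1h4a is the one member whose point is filled and under 0 in all 3.

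The members took other shares of the histone signal in chromatoid bodies, although 18 of the 30 passed in all 3 tables. In this total RNA, Hist1h2ba stood highest per kilobase with 101 to 223 CPM in CTRL CB, followed by Hist1h1t with 39.4 to 90.1, and Hist2h2aa1 with 17.9 to 24.7 and Hist3h2a with 13.8 to 25.4 came next. The ranges of Hist1h2ba and Hist1h1t did not overlap, and those of Hist2h2aa1 and Hist3h2a did. Those of Hist1h1a, 8.62 to 20.5, and Hist1h2aa, 6.22 to 26.5, overlapped the ranges of both Hist2h2aa1 and Hist3h2a. Hist1h1t and Hist1h2ba together held 44.9% to 56.3% of the summed histone level in CTRL CB and 46.8% to 58.2% in cKO CB, against 1.27% to 2.51% in Spc libraries and 2.02% to 5.38% in RS libraries of polyadenylated RNA. Hist2h2be held 3.11% to 5.11% in CTRL CB, and Hist1h2bp held 3.24% to 4.63%. The CB and cell libraries differ in RNA selection, fragmentation, sequencer and compartment, which cannot be told apart, so these shares are set side by side with no test.

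A few rows passed the count rule in CB alone. These were the linker histone gene Hist1h1e, the H3 gene Hist1h3f and the H4 genes Hist1h4d, Hist1h4n and Hist4h4. In CTRL CB the Hist4h4 libraries held 6 to 27 counts, and over all CTRL RS libraries, which are deeper, it held 0 counts, as did Hist1h4d and Hist1h4n. Hist1h1e held 62 counts over the CTRL CB libraries and 1 over the CTRL RS libraries. Of the 75-base words of Hist1h4n, 88.9% are shared with Hist1h4m, so that its counts may belong to either gene. The 6 members that passed in Spc or RS and not in CB were Hist1h2ag, Hist1h2bc, Hist1h2bn, Hist1h3a, Hist1h4i and Hist3h2bb-ps.

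By gene counts, few members changed in cKO CB. Hist1h4a was lower, as in the cell libraries, and the linker histone Hist1h1e was higher. Of the 24 members tested, 1 rose and 1 fell (15079 features), where 15.4% of all features rose and 17.7% fell, 33.0% in all. In the transcript fit, 3 of 14 member transcripts rose and 1 fell, where 17.8% of all transcripts rose and 18.1% fell. Those that rose were Hist1h1c-201 by 1.09 (adjusted p = 0.0445), Hist2h2ab-201 by 1.10 (adjusted p = 0.0128) and Hist2h2ac-201 by 0.72 (adjusted p = 0.0446). The median log2 fold change of the members by gene counts was 0.12 against 0.01 over all features, and with library size scaling alone -0.03 against -0.13. The round spermatid markers fell here too (9 of 10), as did all 10 late spermatid markers. Of the genes of other cells tested, 7 of 7 Leydig, 3 of 5 macrophage, 3 of 8 Sertoli and 3 of 6 spermatogonial genes rose and none of these fell, with a summed Leydig level of 33.5 to 311 CPM in cKO CB against 12.4 to 47.2 in CTRL CB. The part of these other RNAs in the histone values was not tested.

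Hist1h4a was the member that fell. It measured 4.36, 5.63, 4.30 and 5.01 CPM in CTRL CB and 1.58, 1.24 and 1.59 in cKO CB, a log2 fold change of -1.68 ± 0.32 (adjusted p = 0.00166). No cKO library reached a control, and the call held without any 1 of the 7 libraries. The cKO libraries held 9, 4 and 13 counts of Hist1h4a, so that its level there has wide counting error.

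By gene counts Hist1h1e was the member that rose, by 1.92 ± 0.55 (adjusted p = 0.0168). It measured 1.46, 0.395, 1.12 and 1.71 CPM in CTRL CB and 1.23, 4.64 and 7.72 in cKO CB, so that the groups overlapped. Without the 2 control libraries whose names carry MVH, a name of DDX4, a choice made after seeing the data, its value was 1.51 (adjusted p = 0.0982), and without cKO CB c it was 1.21 (adjusted p = 0.175). Hist1h1c did not pass, with 3.94, 1.98, 4.30 and 3.16 CPM in CTRL CB and 2.63, 9.58 and 9.07 in cKO CB (1.08 ± 0.40, adjusted p = 0.053, with 0.00174 without cKO CB a, 0.204 without cKO CB c and 0.0343 by DESeq2). Hist1h1a and Hist1h1t gave 0.58 (adjusted p = 0.182) and 0.65 (adjusted p = 0.188).

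The testis forms spread widely among CB libraries. Hist1h1t measured 43.1, 29.0, 47.8 and 66.2 CPM in CTRL CB and 30.7, 65.5 and 122 in cKO CB, and Hist1h2ba measured 57.0, 45.6, 43.8 and 96.5 CPM and then 44.4, 41.1 and 91.5, a log2 fold change of -0.03 ± 0.32 (adjusted p = 0.945). Both genes' groups overlapped. Hist1h2aa measured 7.53, 2.97, 6.06 and 12.6 CPM in CTRL CB and 2.46, 2.16 and 10.9 in cKO CB (-0.41 ± 0.53, adjusted p = 0.583). Hist2h2aa1 and Hist2h2aa2, which fell in RS, gave -0.59 ± 0.24 each (adjusted p = 0.0795), and Hist1h2bp gave -0.52 ± 0.23 (adjusted p = 0.1).

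**Figure D4:**
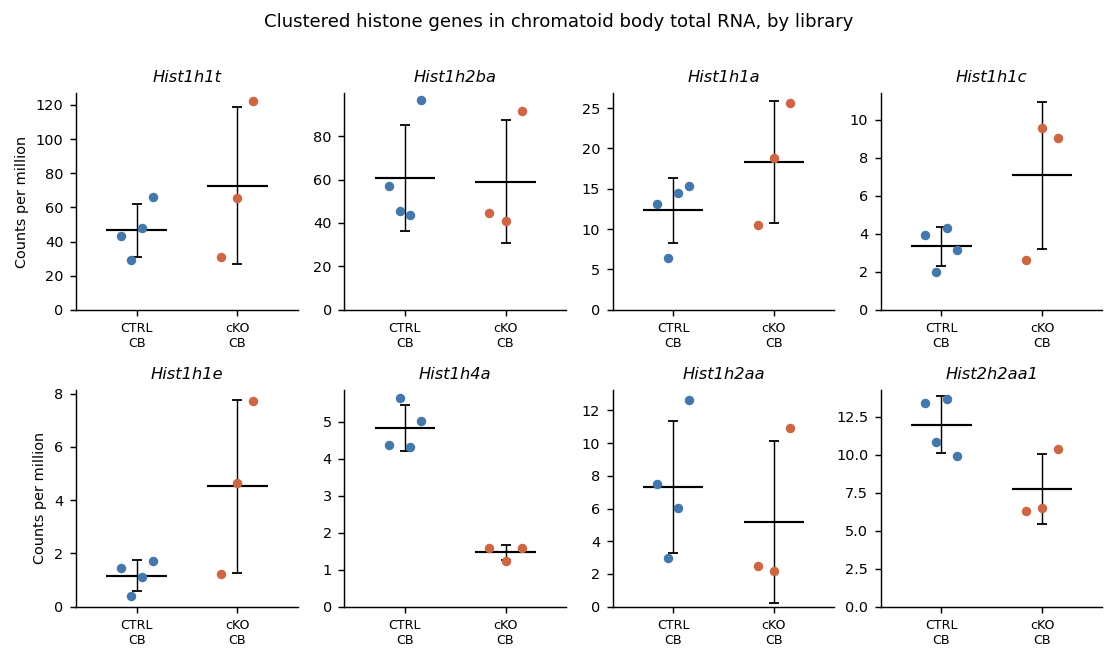
CPM (y axis, linear) of 8 members in each CB library (points; blue CTRL, orange cKO) with the mean (line) and SD (bars; n = 4 CTRL, 3 cKO). Hist1h4a lies between 4.30 and 5.63 in CTRL CB and between 1.24 and 1.59 in cKO CB, while the 2 groups of every other gene drawn overlap.

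Between control spermatocytes and control round spermatids, Hist1h4a, Hist1h2bp and Hist1h1t were higher in RS, and Hist2h2be and Hist3h2bb-ps were lower. Of the 24 tested in CTRL cells, 11 were higher and 6 lower in RS than in Spc (18050 features), where 36.1% of all features were higher and 38.9% lower. These 17 are 70.8% of the members tested, near the 75.0% of all features called in either direction. With the 3 pairs counted once, 9 of 21 signals were higher and 6 lower. All 17 rows had groups that did not overlap, as had 80% of all features and 99% of those called. They were also called in every fit without 1 library in which they were tested, as were 85.9% of all features called. Hist1h1c, Hist1h2ag, Hist1h2bm and Hist1h2bn reached 10 counts only in the group where they were higher, so that they could pass into the test only by differing, and without them 8 rows were higher and 5 lower. The median log2 fold change of the members was 0.19 against -0.05 over all features, and with library size scaling alone -0.22 against -0.47. This comparison shares the CTRL RS libraries with the comparison of cKO and CTRL in RS, so their values for a gene are not independent. Markers of other cells moved with it: all 11 Sertoli genes (median -3.23), all 8 Leydig genes (median -4.93) and 8 of 9 spermatocyte genes (median -1.76) were lower in CTRL RS, and their part in the histone values was not tested.

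Of the 5 classes, each had genes among those higher in control round spermatids. Hist1h4a rose from 3.54 to 4.90 CPM in CTRL Spc to 15.8 to 20.6 in CTRL RS, a log2 fold change of 1.90 ± 0.19 (adjusted p = 0.000166). Hist1h2bp rose by 1.57 ± 0.20 (adjusted p = 0.000339), from 12.3 to 21.4 CPM to 51.1 to 53.5, and Hist2h2aa1 by 0.88 ± 0.13 (adjusted p = 0.000647). Uniquely mapped pairs, summed per gene, gave 0.96 for Hist2h2aa1 without a call (adjusted p = 0.457). Hist1h3a and Hist1h1a rose by 1.56 (adjusted p = 0.00473) and 1.55 (adjusted p = 0.00369). Hist1h2ag and Hist1h2bj gave 2.35 (adjusted p = 0.0128) and 1.71 (adjusted p = 0.00167), the first having passed into the test through CTRL RS alone.

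A pair of H2B genes was all but absent from the polyadenylated RNA of control spermatocytes. Hist1h2bm held 2 counts over the CTRL Spc libraries and 77 over the CTRL RS libraries, a ratio of 57.3 with a 95% counting interval from 15.3 to 482. Hist1h2bn held 0 counts in every CTRL Spc library, and its CTRL RS mean was at least 12-fold higher than the level of 3 counts per library. Both were called higher in CTRL RS (adjusted p = 0.000207 and 0.000488), having passed into the test through CTRL RS alone. Their counts tracked each other in CTRL RS, with 37, 18 and 22 for Hist1h2bm and 36, 17 and 21 for Hist1h2bn, so that the 2 rows may hold the same reads and are not taken as separate results. In cKO RS the pair differed between libraries, with 2, 26 and 25 counts of Hist1h2bm and 0, 21 and 22 of Hist1h2bn. Library cKO RS 1 stood apart from the other two for both genes.

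The genes that were lower in control round spermatids came from 4 classes and included no H3 gene. Hist1h1c fell by 3.06 ± 0.52 (adjusted p = 0.00122), from 0.596, 1.84 and 1.23 CPM to 0.111, 0.150 and 0.213, and it passed into the test through CTRL Spc alone. Hist2h2be fell by 1.91 ± 0.19 (adjusted p = 0.00016), from 31.8, 31.5 and 40.4 CPM to 7.88, 12.1 and 9.95, and Hist3h2bb-ps fell by 2.14 ± 0.28 (adjusted p = 0.000402). Hist2h2ab, Hist3h2a and Hist1h4h gave -1.76 (adjusted p = 0.00143), -1.65 (adjusted p = 0.00173) and -1.09 (adjusted p = 0.0112). Of the testis forms, Hist1h1t was higher in CTRL RS by 1.42 ± 0.30 (adjusted p = 0.0035), whereas Hist1h2ba gave 0.26 ± 0.28 (adjusted p = 0.43) and Hist1h2aa -0.32 ± 0.23 (adjusted p = 0.248). With library size scaling alone Hist1h2ba turned to -0.15 (adjusted p = 0.645) and Hist1h2aa passed with -0.73 (adjusted p = 0.021).

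In the cKO, Hist1h2bp and Hist1h4a were higher in RS than in Spc and 5 members led by Hist2h2ab and Hist2h2be were lower. Of the 24 tested, 2 were higher and 5 lower in cKO RS than in cKO Spc (18712 features), where 18.1% of all features were higher and 25.4% lower, 43.5% in all, and with library size scaling alone 4 were higher and 4 lower. The median log2 fold change of the members was -0.45 against 0.00 over all features, and with library size scaling alone -0.31 against 0.15. Of the markers of other cells, 10 of 10 macrophage genes were higher (median 2.148) and 6 of 8 Leydig genes (median -2.66) and 8 of 9 spermatocyte genes (median -1.16) lower in cKO RS, and their part in the histone values was not tested. Hist1h2bp was higher by 0.77 ± 0.16 (adjusted p = 0.00729) and Hist1h4a by 1.14 ± 0.32 (adjusted p = 0.0249, but up to 0.074 without cKO Spc 1, cKO Spc 3, cKO RS 1 or cKO RS 2). Hist2h2be fell by 2.10 ± 0.18 (adjusted p = 0.000249) and Hist2h2ab by 2.23 ± 0.31 (adjusted p = 0.00135), and Hist3h2a and Hist3h2bb-ps gave -1.33 (adjusted p = 0.000865) and -1.22 (adjusted p = 0.00605). Hist1h2aa fell by 0.97 (adjusted p = 0.0293), a call lost in all 6 fits without 1 library (up to 0.0864), and Hist1h1t gave 0.72 ± 0.30 (adjusted p = 0.0863, and 0.0442 with library size scaling alone). Hist2h2aa1, which rose in control development, measured 16.1 to 19.5 CPM in cKO Spc and 17.0 to 19.6 in cKO RS.

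**Figure D5:**
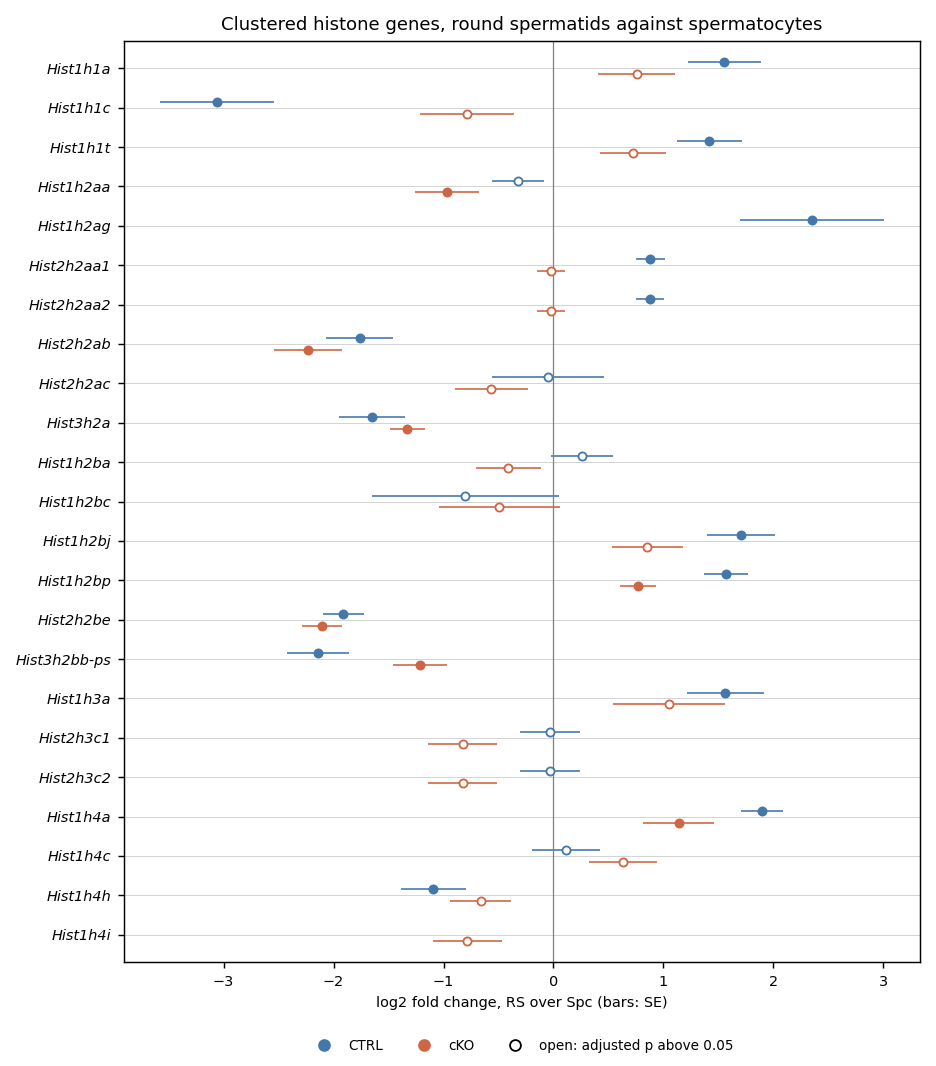
Log2 fold change of RS over Spc (x axis, bars SE) in CTRL (blue) and cKO (orange) for each member tested, ordered by histone class, with open points where the adjusted p is above 0.05; Hist1h2bm and Hist1h2bn, at 2 and 0 counts in CTRL Spc, are not drawn. In CTRL the values run from -3.06 for Hist1h1c to 2.35 for Hist1h2ag, and in the cKO fewer points are filled.

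Whether the genotype effect itself differed between the 2 cell types was tested as an interaction, here the log2 fold change of cKO over CTRL in RS minus that in Spc. Of the 25 members tested, 1 was positive and 4 negative at the threshold (19192 features), where 19.4% of all features were positive and 21.3% negative, 40.6% in all. Of the marker genes, 11 of 11 Sertoli (median 3.44) and 6 of 10 macrophage genes were positive and 8 of 10 round spermatid and 6 of 10 late spermatid genes negative, and the part of cell make-up in the histone values was not tested. Hist2h2aa1 and Hist2h2aa2 had a larger fall in RS, by -0.98 ± 0.17 each (adjusted p = 0.00183 and 0.00181), and both calls held without replicate 1, 2 or 3. Hist1h2bp gave -0.89 ± 0.26 (adjusted p = 0.0201, up to 0.103 without replicate 2, and -0.25 with an adjusted p of 0.452 under library size scaling), Hist1h2bm gave a negative value resting on the 2 counts of CTRL Spc (adjusted p = 0.0477), and Hist1h1c gave 2.21 ± 0.72 (adjusted p = 0.0296, up to 0.121 without replicate 3). For Hist1h4a, which fell in both cell types, the difference was -0.84 ± 0.36 (adjusted p = 0.0823), and for Hist2h2be, which rose in both, it was -0.26 ± 0.27 (adjusted p = 0.443). The median over all features was -0.12, and with library size scaling alone it was 0.52. With that scaling edgeR called 2 members positive and 0 negative (1 negative at an unadjusted p under 0.05), DESeq2 called 2 positive and 5 negative, and Hist2h2aa1 gave -0.34 (adjusted p = 0.11). Uniquely mapped pairs, summed per gene, gave -1.35 for Hist2h2aa1 and -0.61 for Hist2h2aa2, with no call for either (adjusted p = 0.461 and 0.475).

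Genes that make, bind and degrade histone mRNA were measured beside the members. Of 16 genes for histone mRNA 3′ processing and their partners, 6 rose and 4 fell in cKO RS, 3 rose and 0 fell in cKO Spc, and 2 were higher and 11 lower in CTRL RS than in CTRL Spc. These are 37.5% and 25% of the list in RS, where 38.0% of all features rose and 33.3% fell, and 18.8% rising in Spc, where 13.3% did. In CTRL RS against CTRL Spc they are 12.5% higher and 68.8% lower, against 36.1% and 38.9% of all features. Slbp, the stem-loop binding protein, gave 0.02 ± 0.07 in RS (adjusted p = 0.775), -0.12 ± 0.08 in Spc (adjusted p = 0.331) and 0.52 ± 0.17 in CB (adjusted p = 0.0324). Hinfp, a transcription factor of H4 genes, rose in cKO RS by 2.19 ± 0.12 (adjusted p = 2.09e-06), and Srrt (ARS2), which binds the cap-binding complex, rose by 2.152 ± 0.08 (adjusted p = 4.6e-07). Of 22 genes for histone mRNA translation and decay, a set that includes UPF1-linked factors, 13 rose and 4 fell in cKO RS, or 59.1% and 18.2% against the same 38.0% and 33.3%, with Upf1 up by 2.18 ± 0.11 (adjusted p = 1.14e-06). Of the Lsm ring, Lsm3 and Lsm6 were up by 1.08 ± 0.15 (adjusted p = 0.000292) and 0.76 ± 0.21 (adjusted p = 0.0123) and Lsm1, Lsm5 and Lsm7 also rose, while Lsm2 and Lsm4 fell by 0.61 ± 0.06 (adjusted p = 7.44e-05) and 0.45 ± 0.09 (adjusted p = 0.00281). The median log2 fold change was 0.53 for that list against 0.10 over all features.

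Histone genes outside the clusters and S phase genes give the remaining context. The mRNAs of most such histone genes are polyadenylated, while H2afx (H2ax in RefSeq) holds the stem-loop motif. Of 16 outside histone genes tested in RS, 3 rose and 8 fell (18.8% and 50%, against 38.0% and 33.3% of all features), with H1fnt (H1T2) and H2afb1, a pair of spermatid histones, down by 3.32 ± 0.12 (adjusted p = 3.37e-07) and 4.00 ± 0.15 (adjusted p = 3.88e-07). Their summed level was 2658 to 2985 CPM in CTRL RS and 976 to 987 in cKO RS. Of 20 S phase genes, 11 rose and 2 fell in cKO RS (55% and 10%, against the same shares of all features), with Pola1, the catalytic subunit of DNA polymerase alpha, up by 2.35 ± 0.24 (adjusted p = 5.84e-05) and Ccne2 by 1.04 ± 0.13 (adjusted p = 0.000212), while 1 rose and 1 fell in cKO Spc, where 13.3% and 13% of all features did. In CB, where 15.4% of all features rose and 17.7% fell, 3 of 19 S phase genes rose and 1 fell, 5 of 15 outside histone genes rose and 4 fell, and the 2 lists for histone mRNA had 2 rising with 1 falling and 1 rising with 2 falling.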

How the data were processed

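RNA-seq libraries of enriched spermatocytes, round spermatids and chromatoid bodies were analysed from tables that the authors deposited. For the gene tables, the authors trimmed adapters (cutadapt 2.8), aligned reads to GRCm38 (STAR 2.7.1a) and counted them with TEtranscripts, so that the deposited values are raw counts per gene or transposable element. The deposited transcript tables hold expected counts, fractional estimated counts of uniquely mapped pairs from featureCounts 2.0.1, in which the authors divided pairs among overlapping transcripts; these were rounded. Small RNA and piRNA precursor tables were not used here.

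Features with at least 10 counts (transcripts, 20) in at least 3 libraries of a fit were tested with the edgeR 4.0.16 quasi-likelihood test (R 4.3.3), TMM scaling and Benjamini-Hochberg adjustment over all features of the fit, transposable elements included. Each fit held only the libraries compared, and all 12 Spc and RS libraries entered the interaction. Values in CPM are on the TMM scale. Fits were tested on simulated data. Alternatives were DESeq2 1.42.0, library size scaling, no count filter, summed transcript counts, a replicate block, a stricter call and each library left out. The members and lists were chosen with earlier results of these data known. Named genes were the testis forms, the 2 highest members per class, at most 3 changes per direction with a mean of at least 50 counts and the 2 largest changes per list; other members were named after their values were seen. Stem-loops and exon lengths came from RefSeq (GRCm38), whose gene models may differ from those counted.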

Additional observations from a re-analysis of the deposited data

Results flagged for a closer look

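The genotype effect, as log2 fold change of cKO over CTRL, differed between RS and Spc by the edgeR interaction test for 10 of 26 named genes, which is 38.5%, where 40.6% of all features were called. Among the members, RS minus Spc was 2.208 for Hist1h1c, -0.885 for Hist1h2bp, -0.981 for Hist2h2aa1 and -0.979 for Hist2h2aa2. Among the listed genes it was 0.867 for Ccne2, 1.304 for Hinfp, 0.929 for Lsm3, 1.014 for Lsm6, 2.002 for Pola1 and 1.058 for Srrt. In CTRL CB, 1 library stood far above the other 3 for Hist2h2ab, with 2.668 CPM, the one such case in 25 series of values tested, where chance marks about 5% of groups.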

How the results depend on the processing

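Several calls depended on the scaling in RS, on whether gene counts or summed transcript counts were used or on 1 library, and low counts limit the precision of many members. Counts of members are given as higher and lower. In cKO against CTRL Spc (5 and 4), 3 were higher with no count filter, 2 with the replicate block, and 1 lower with summed transcript counts. In RS (5 and 10), library size scaling gave 9 and 6, and the block gave 3 higher. In CB (1 and 1), DESeq2 and library size scaling each gave 2 higher and no filter 3, summed transcripts gave 2 lower, and leaving out the 2 MVH libraries, chosen after seeing the data, gave 0 higher by edgeR (2 at an unadjusted p under 0.05). For RS over Spc in the cKO (2 and 5), library size scaling gave 4 higher. For the interaction (1 and 4), DESeq2 and library size scaling each gave 2 positive, library size scaling gave 0 negative (1 at an unadjusted p under 0.05), and summed transcripts gave 0 positive (2 at an unadjusted p under 0.05) and 1 negative. A call that also asked for a log2 fold change of at least 1.5 left 0 and 2 in Spc, 1 and 2 in RS, 0 and 2 for RS over Spc in the cKO, and 1 negative interaction. Summed transcript counts differ from gene counts in the reads kept, in how these were divided and in the annotation, and which of these moved a call was not tested.

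With each library left out, the counts ran from 1 to 3 higher and 1 to 3 lower in Spc, 2 to 4 and 6 to 9 in RS, 0 to 4 and 1 to 4 in CB, 8 to 11 and 5 to 7 for RS over Spc in CTRL, and 1 to 2 and 4 to 5 in the cKO. Without replicate 1, 2 or 3 the interaction gave 0 positive (1 to 2 at an unadjusted p under 0.05) and 2 to 4 negative.

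None of the members named by the rule of the methods that changed sign under an alternative passed the test in the comparison concerned, apart from Hist2h2aa1 in Spc, at 0.362 with summed transcripts. With library size scaling their log2 values that turned were 0.338 for Hist1h1t in RS, -0.150 for Hist1h2ba and -0.299 for Hist1h4c in RS over Spc in CTRL, 0.122 for Hist2h2aa1 and Hist2h2aa2 in the cKO, and 0.040 for Hist1h3a, 0.100 for Hist2h2ab and 0.378 for Hist2h2be in the interaction. Of the other members, Hist1h2bc turned to 0.534 in RS and Hist1h4i and Hist2h2ac to 0.118 and 0.045 in the interaction. DESeq2 gave 0.017 for Hist2h3c1 and Hist2h3c2 in CTRL and 0.014 for the Hist2h2aa pair in the cKO, which gave 0.043 with no filter. Summed transcripts gave 0.120 for Hist2h2aa2 there, 0.007 for Hist1h2ba in CB and -0.158 for Hist3h2a in the interaction.

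With 1 library left out, Hist1h2bp in Spc ran from -0.438 to 0.000 and Hist1h1t in RS from -0.436 to 0.028. In CB, Hist1h2aa ran from -1.609 to 0.020, Hist1h2ba from -0.450 to 0.288, Hist1h4c from -1.408 to 0.039, Hist1h4h from -0.798 to 0.060 and Hist2h3c2 from -0.156 to 0.566. For RS over Spc, Hist1h4c ran from -0.129 to 0.330 and the Hist2h3c pair from -0.164 to 0.140 in CTRL, and the Hist2h2aa pair from -0.084 to 0.124 in the cKO. In the interaction, Hist1h4h ran from -0.050 to 0.784 and Hist2h2be from -0.433 to 0.053. Of the remaining values of named members under an alternative, 982 kept direction and side of the threshold, 77 lost the call and 24 gained it.

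Same-numbered libraries of the groups compared did not all deviate together (correlations from -0.2804 to 0.6004 in pairs of groups), nor did every library correlate best with its own number. The highest of these values was that of cKO Spc 2 with cKO RS 2. With 3 libraries per group this check cannot exclude that equal numbers mark 1 mouse. For RS over Spc in the cKO, the block moved the calls over all features from 3383 higher and 4762 lower to 4424 and 5081. The replicate block gave 2 and 3 members higher in Spc and RS and changed no other count by over 1.5 times. For CB no block was fitted, since the numbers in its column names are not the replicate numbers of the labels.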
